A study of Mus musculus with 16 samples.

Results

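Matrix metalloproteinases (MMPs) were examined in chondrocyte-enriched cells from newborn mice by RNA-Seq. The genes were chosen by name, with earlier results of these data known, so counts of those that passed a test only describe them. They are 10 of the 55414 genes counted, namely Mmp2, Mmp3, Mmp9, Mmp10, Mmp11, Mmp12, Mmp13, Mmp14, Mmp16 and Mmp19. The study asked whether a Notch2 gain-of-function mutation alters the response of these cells to tumor necrosis factor α (TNFα), a cytokine of joint inflammation. The 16 libraries form 4 groups of 4, which were wild type cells with vehicle, wild type cells with TNFα, Notch2 mutant cells with vehicle and Notch2 mutant cells with TNFα. The mutant cells came from heterozygous Notch2tm1.1Ecan mice, whose Notch2 gene has an early stop codon, and the NOTCH2 protein made from it is without the PEST domain, the sequence that targets it for degradation. The wild type cells came from control littermates, and both genotypes were on a C57BL/6 background. The allele is present in every cell of the mutant mice and is not limited to cartilage. Cells were released with trypsin and collagenase from the epiphyses of mice 3 to 4 days old, males and females together, and were grown to confluence. They then received TNFα at 50 ng/ml or phosphate-buffered saline as vehicle for 6 h. The sample annotation states that serum was withdrawn for the TNFα groups only, whereas the study's description of the experiment states it for both treatments. If the annotation is right, TNFα and the withdrawal of serum cannot be told apart. The replicates are called biological replicates with no statement of which animals they came from, so p-values measure the spread between these libraries only.

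MMPs are zinc-dependent endopeptidases that are made as inactive zymogens and cleave extracellular matrix once their propeptide is removed. In cartilage they remodel the growth plate during development and take part in the loss of type II collagen and aggrecan in arthritis. Mmp13 is the main collagenase of mouse cartilage, and Mmp3 and Mmp10 are stromelysins, which cleave proteoglycans and can activate other MMP zymogens. Mmp2 and Mmp9 are gelatinases, which degrade denatured collagen. Mmp12 is the macrophage elastase, Mmp14 and Mmp16 are anchored in the cell membrane, and Mmp14 also activates the zymogen of Mmp2. Mmp11 is activated inside the cell by furin, and Mmp19 is a widely expressed member of the family.

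The inducible collagenase and stromelysin genes are known for short promoters with an AP-1 element and a TATA box, so the sequence before their starts is shown beside that of Mmp14 and Mmp11. The windows are the 250 bases before the annotated start, from the RefSeq promoters of GRCm38.p6, and 6 of the 10 genes were found there; Mmp2, Mmp9, Mmp16 and Mmp19 are named only. Capitals mark the letters TGANTCA (the AP-1 consensus, which reads the same on both strands) and TATAAA (the TATA box, on the strand of the gene), both strands were searched, and these motifs do not overlap each other. The windows lie at chr9:7272264-7272513 (+ strand) for Mmp13, chr9:7445572-7445821 (+ strand) for Mmp3, chr9:7502092-7502341 (+ strand) for Mmp10, chr9:7347124-7347373 (+ strand) for the second annotated start of Mmp12, chr14:54431348-54431597 (+ strand) for Mmp14 and chr10:75932503-75932752 (- strand) for Mmp11.
Mmp13: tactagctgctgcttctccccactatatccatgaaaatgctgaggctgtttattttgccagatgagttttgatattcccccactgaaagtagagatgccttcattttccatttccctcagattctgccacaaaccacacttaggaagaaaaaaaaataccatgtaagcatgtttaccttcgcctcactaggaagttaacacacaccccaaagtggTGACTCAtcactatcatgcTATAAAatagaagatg
Mmp3: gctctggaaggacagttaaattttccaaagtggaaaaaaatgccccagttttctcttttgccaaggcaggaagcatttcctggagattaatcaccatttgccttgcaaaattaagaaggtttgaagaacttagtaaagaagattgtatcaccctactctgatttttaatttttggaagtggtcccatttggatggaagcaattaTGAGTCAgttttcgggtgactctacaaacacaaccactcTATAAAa
Mmp10: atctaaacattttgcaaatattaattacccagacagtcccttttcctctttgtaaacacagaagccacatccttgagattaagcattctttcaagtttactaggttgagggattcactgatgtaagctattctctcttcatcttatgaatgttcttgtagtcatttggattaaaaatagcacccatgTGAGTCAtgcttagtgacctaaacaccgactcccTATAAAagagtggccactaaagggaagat
Mmp12: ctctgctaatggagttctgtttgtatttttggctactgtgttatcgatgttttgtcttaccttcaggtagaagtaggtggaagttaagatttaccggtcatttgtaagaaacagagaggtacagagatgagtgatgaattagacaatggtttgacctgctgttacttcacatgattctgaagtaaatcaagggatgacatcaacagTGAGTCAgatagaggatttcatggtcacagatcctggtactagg
Mmp14: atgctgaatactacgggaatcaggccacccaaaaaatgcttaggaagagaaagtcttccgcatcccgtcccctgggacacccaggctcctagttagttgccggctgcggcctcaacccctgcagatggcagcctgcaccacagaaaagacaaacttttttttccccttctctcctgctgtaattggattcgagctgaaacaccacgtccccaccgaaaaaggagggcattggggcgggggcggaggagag
Mmp11: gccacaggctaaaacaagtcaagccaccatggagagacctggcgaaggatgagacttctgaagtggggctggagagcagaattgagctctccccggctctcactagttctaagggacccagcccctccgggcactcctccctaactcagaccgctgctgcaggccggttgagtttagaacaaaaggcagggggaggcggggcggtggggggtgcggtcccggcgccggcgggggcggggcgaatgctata

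The windows of Mmp13, Mmp3 and Mmp10 held both motifs. The AP-1 letters began 35 bases before the start in Mmp13, 46 in Mmp3, 63 in Mmp10 and 44 in Mmp12, and the window at the first annotated start of Mmp12 held neither motif. The windows of Mmp14 and Mmp11 held neither, and their GC contents were 55.2 and 63.2%, against 40.4, 37.6 and 37.2% for Mmp13, Mmp3 and Mmp10. Of all 32851 windows of the same length in the table, 6.75% held TGANTCA, 12.4% held TATAAA and 1.21% held both. TGGGAA, the core letters bound by the Notch effector RBPJ, stood in 21.6% of all windows on either strand and in none of those of the 6 genes. The NF-κB consensus stood in 7.25% of all windows and in the first window of Mmp12. A match of letters is a description of the sequence and is not evidence of binding.

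The libraries held 3439726 to 44237300 fragments on genes, the lowest being Notch2 mutant TNFα replicate 4 and the next lowest 12552727. Levels are given as fragment counts scaled to the library total on genes after TMM (CPM), and CPM per kb of exon is used to compare genes with each other. Both wild type replicate 4 libraries stood apart. On the first principal component, with 79.4% of the variance, the other 7 vehicle libraries lay between -52.2 and -49.9 and wild type vehicle replicate 4 lay at -16.5. On the same component the other 7 TNFα libraries lay between 46.7 and 50.5 and wild type TNFα replicate 4 lay at 35.8. The summed level of 9 genes known to respond to TNFα was 1025 CPM in wild type vehicle replicate 4 and 169 to 184 CPM in the other wild type vehicle libraries. For the 10 genes, results that rest on these libraries are therefore given with and without them, and the origin of their levels was not tested. On the second principal component, with 7.11% of the variance, Notch2 mutant TNFα replicate 4 lay at 27.4. The rest of its group lay between 11.4 and 12.2. The labelled cell type was checked with 10 chondrocyte markers, Sox9, Col2a1 and Acan among them, none of which was at 0 in every library of a group. Their summed level was 49370 to 53210 CPM in wild type vehicle cells and 30890 to 35780 CPM in Notch2 mutant vehicle cells. With TNFα it was 35460 to 42160 CPM in wild type cells and 19400 to 21920 CPM in Notch2 mutant cells. In RNA from whole cultures, fewer cells of a type and less RNA per cell cannot be told apart. Of the Notch target genes, Heyl was higher in the mutant cells with vehicle by 3.04 on the log2 scale (adjusted p = 6.25e-07) and with TNFα by 2.46 (adjusted p = 0.000144). Its level in wild type cells was low, at most 5 counts in a vehicle library and 10 in a TNFα library, so these sizes are imprecise. Hes1 (0.61, adjusted p = 0.000405) and Hey1 (0.59, adjusted p = 0.00727) were higher with vehicle, where Hey2 did not pass (adjusted p = 0.111). With TNFα Hes1 (adjusted p = 0.211), Hey1 (adjusted p = 0.861) and Hey2 (adjusted p = 0.944) did not pass, and Hes1 did without wild type replicate 4 (1.04, adjusted p = 0.00097). All adjusted p-values are from the quasi-likelihood test of edgeR, adjusted by Benjamini-Hochberg across every gene tested. The mutation itself is a single base and cannot be read from gene counts.

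With vehicle, Mmp2 and Mmp14 made up most of the MMP transcripts of both genotypes, and with TNFα the collagenase Mmp13 and the stromelysin Mmp3 reached levels of the same order. In wild type vehicle cells the mean level was 141 ± 2.15 CPM per kb for Mmp2 (SD, n = 4), 97.8 ± 1.03 for Mmp14 and 39.9 ± 13.02 for Mmp13. Mmp3 followed at 14.3 ± 13.7 CPM per kb, Mmp11 at 9.80 ± 0.834 and Mmp19 at 9.47 ± 0.429. Mmp16 at 1.60, Mmp9 at 0.551, Mmp12 at 0.381 and Mmp10 at 0.0783 CPM per kb were the lowest. The libraries of neighbors in this order overlapped for Mmp13 with Mmp3, Mmp3 with Mmp11, Mmp11 with Mmp19, Mmp16 with Mmp9 and Mmp9 with Mmp12. In Notch2 mutant vehicle cells the order began with Mmp2 at 137 ± 6.80, Mmp14 at 111 ± 6.82 and Mmp13 at 19.4 ± 3.60 CPM per kb. Mmp19 at 11.9, Mmp11 at 11.8 and Mmp3 at 9.36 CPM per kb came next there, and of these Mmp19 and Mmp11 overlapped.

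In wild type TNFα cells Mmp13 stood first at 208 ± 20.9 CPM per kb, followed by Mmp3 at 190 ± 26.7, Mmp2 at 180 ± 1.17 and Mmp14 at 112 ± 3.85. Mmp13 and Mmp3 overlapped, as did Mmp3 and Mmp2. In Notch2 mutant TNFα cells Mmp2 stood first at 207 ± 5.17 CPM per kb, followed by Mmp13 at 178 ± 3.57, Mmp3 at 150 ± 13.3 and Mmp14 at 133 ± 6.39. Only Mmp3 and Mmp14 overlapped among these 4. The order of Mmp2 and Mmp14 depends on the length used, since Mmp14 has 6166 bases of exon in all and 3450 in its longest transcript. With the longest transcript, Mmp14 ranked first and Mmp2 second in the 3 groups other than wild type TNFα, and Mmp13, Mmp14, Mmp2 and Mmp3 was the order there.

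The summed level of the 10 genes was 297 to 304 CPM per kb in wild type vehicle replicates 1 to 3 and 358 in replicate 4. It was 292 to 317 CPM per kb in Notch2 mutant vehicle cells, 656 to 760 in wild type TNFα cells and 679 to 730 in Notch2 mutant TNFα cells. Mmp2 and Mmp14 together held 78.5 to 80% of this sum in wild type vehicle replicates 1 to 3, 67.5% in replicate 4, and 80.9 to 84.2% in Notch2 mutant vehicle cells. With TNFα they held 38.8 to 45.2% in wild type cells and 47.7 to 49.4% in Notch2 mutant cells, so the groups did not overlap. Mmp3 and Mmp13 together held 50.0 to 56.9% in wild type TNFα cells and 45.4 to 47.2% in Notch2 mutant TNFα cells. Their share with vehicle was 13 to 14% in wild type replicates 1 to 3, 26.3% in replicate 4, and 7.57 to 10.4% in the mutant cells. All of these shares depend on the length used. By the longest transcript, the wild type TNFα means were 208 CPM per kb for Mmp13, 201 for Mmp14, 198 for Mmp2 and 190 for Mmp3. In Notch2 mutant TNFα cells they were 238 for Mmp14, 227 for Mmp2, 178 for Mmp13 and 150 for Mmp3.

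**Figure D1:**
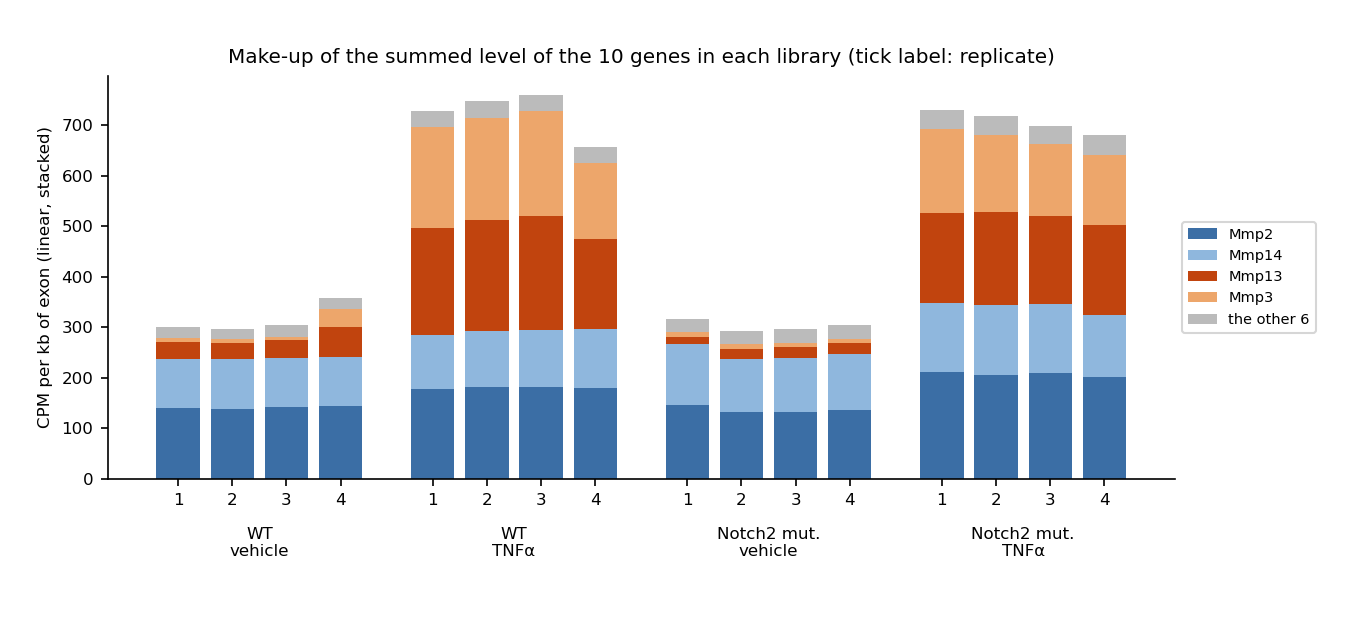
Stacked bars give the level of the MMP genes in each of the 16 libraries in CPM per kb of exon on a linear axis, with the replicate number under each bar and the 4 groups side by side. Mmp2 and Mmp14 (blue) fill 67.5 to 84.2% of the vehicle bars, and Mmp13 and Mmp3 (orange) fill 45.4 to 56.9% of the TNFα bars.

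TNFα raised the collagenase, the stromelysin Mmp3 and the gelatinase Mmp9 in both genotypes, in each case several-fold, and changed the membrane-type Mmp14 and the gelatinase Mmp2 by far less. In wild type cells 8 of the 10 genes passed the test at an adjusted p under 0.05, 7 of them higher and 1 lower, where 44.2% of the 19338 genes tested passed, 23.3% higher and 20.9% lower. Their groups did not overlap for 8 of the 10, against 41.8% of all genes. In Notch2 mutant cells 8 of the 10 passed as well, 7 higher and 1 lower, where 44.5% of 19633 genes passed, 22.6% higher and 21.9% lower. Their groups did not overlap for 7 of the 10, against 40.2% of all genes. The median log2 fold change of the 10 genes was 0.59 in wild type cells, where that of all genes was 0.039, and 0.68 in Notch2 mutant cells, where that of all genes was 0.026. Without both wild type replicate 4 libraries the wild type count was again 7 higher and 1 lower, where 47.4% of all genes passed. At a change of at least 2-fold with all libraries, 4 of the 10 were called in wild type cells, against 11.8% of all genes, and 3 in Notch2 mutant cells, against 13.9%. Mmp10 is among the 8 and the 4 called in wild type cells. It reached the filter of 10 counts through its TNFα libraries, with 47 counts there and 9 with vehicle.

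Mmp13 (chromosome 9, 7272514 to 7283331, GRCm39) stood at 88.9, 84.2, 95.1 and 158 CPM in wild type vehicle replicates 1 to 4 and at 562, 583, 604 and 476 CPM in wild type TNFα replicates 1 to 4. In Notch2 mutant cells it stood at 38.2, 52.2, 57.2 and 59.8 CPM with vehicle and at 473, 489, 467 and 476 CPM with TNFα. All TNFα libraries lay above all vehicle libraries, and wild type replicate 4 was the highest vehicle library and the lowest wild type TNFα library. On the log2 scale Mmp13 rose by 2.39 (standard error, SE, 0.25, adjusted p = 0.000287) in wild type cells, a 5.23-fold difference. In Notch2 mutant cells it rose by 3.19 (SE 0.11, adjusted p = 6.8e-11), a 9.13-fold difference. Without wild type replicate 4 the wild type value was 2.71 (adjusted p = 5.52e-27), a 6.54-fold difference.

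Mmp3 (chromosome 9, 7445822 to 7455975) stood at 14.9, 12.9, 12.7 and 62.7 CPM in the wild type vehicle libraries and at 362, 365, 372 and 270.3 CPM in the wild type TNFα libraries. In the Notch2 mutant libraries it stood at 17.4, 17.3, 16.3 and 16.4 CPM with vehicle and at 302, 277, 257 and 248 CPM with TNFα. The treatments did not overlap in either genotype, and wild type vehicle replicate 4 held several times the level of every other vehicle library. The rise of Mmp3 was 3.72 on the log2 scale (SE 0.65, adjusted p = 0.00363) in wild type cells and 4.01 (SE 0.075, adjusted p = 6.79e-25) in Notch2 mutant cells. These are 13.2-fold and 16.2-fold differences. Without wild type replicate 4 the wild type value was 4.76 (SE 0.057, adjusted p = 2.24e-30), a 27.1-fold difference.

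Mmp10, the other stromelysin (chromosome 9, 7502353 to 7510241), was close to the floor of detection, which was taken as 3 counts in a library. Its counts were 3, 1, 0 and 5 in the wild type vehicle libraries and 8, 16, 15 and 8 in the wild type TNFα libraries. The levels were 0.166, 0.0761, 0 and 0.298 CPM with vehicle and 0.630, 0.878, 0.874 and 0.418 CPM with TNFα, which do not overlap. The log2 difference of Mmp10 was 2.26 (SE 0.60, adjusted p = 0.00357), and with all 16 libraries in the fit the adjusted p was 0.0811. Without wild type replicate 4 it was 3.13 (SE 0.71, adjusted p = 0.000507), where no vehicle library was above the floor. In Notch2 mutant cells the counts were 0, 21, 0 and 2 with vehicle and 18, 13, 9 and 3 with TNFα, and the groups overlapped through vehicle replicate 2. The log2 difference there was 1.64 (SE 1.05, adjusted p = 0.256), and the gene passed the test without vehicle replicate 2 (4.71, adjusted p = 2.06e-05), where no vehicle library was above the floor and the size of the difference is not a bound. With all libraries it passed with the replicate block (1.96, adjusted p = 0.00379) and with no filter (adjusted p = 0.0155). Mmp10 and Mmp3 share 65 stretches of 75 bases, the length of a read, which is 3.94 and 3.76% of their stretches, and fragments from such stretches cannot be told apart.

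Mmp9 (chromosome 2, 164780439 to 164797771) stood at 0.608, 0.304, 0.579 and 6.67 CPM in the wild type vehicle libraries and at 43.6, 44.7, 47.2 and 38.7 CPM in the wild type TNFα libraries. Mutant cells held it at 1.72, 1.85, 1.14 and 1.68 CPM with vehicle and at 42.3, 43.2, 40.2 and 46.4 CPM with TNFα. It was low in every vehicle library but wild type replicate 4 and reached a similar range in both genotypes with TNFα. For Mmp9 the rise was 4.36 on the log2 scale (SE 0.64, adjusted p = 0.0017) in wild type cells and 4.73 (SE 0.12, adjusted p = 3.02e-22) in Notch2 mutant cells. These are 20.5-fold and 26.5-fold differences, at ranks 138 of 19338 and 207 of 19633 from the top. Without wild type replicate 4 the wild type value was 6.45 (SE 0.15, adjusted p = 1.16e-23), an 87.2-fold difference. It rests on 11, 4 and 9 counts in wild type vehicle replicates 1 to 3, so its size is imprecise. Neutrophils and osteoclasts are both rich in Mmp9. The summed level of 7 neutrophil markers was at most 0.867 CPM in any library. That of 7 osteoclast markers was 221 to 249 CPM with vehicle and 225 to 251 CPM with TNFα over both genotypes, and Dcstamp or Ocstamp was at 0 in every library of 3 groups. Most of this sum was Ctsk, at group means of 167.5 to 183 CPM. Of the 5 osteoclast markers tested, 4 were higher and 0 lower with TNFα in wild type cells, and 3 and 0 in mutant cells. Of all genes, 23.3% were higher in wild type and 22.6% in mutant cells. Among the markers, the means with vehicle and TNFα were 7.95 and 12.7 CPM in wild type and 7.18 and 14.6 CPM in mutant cells for Acp5, and 0.0893 and 2.16 CPM and 0.00575 and 3.05 CPM for Calcr. Calcr held at most 6 counts in a vehicle library and reached the filter through its TNFα libraries. The part of these cells in the level of Mmp9 was not tested.

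Mmp2 (chromosome 8, 93553902 to 93580049) stood at 494, 490.4, 501 and 507 CPM in the wild type vehicle libraries and at 630.4, 639, 639 and 638 CPM in the wild type TNFα libraries. In the Notch2 mutant libraries it stood at 517, 468, 465 and 480.1 CPM with vehicle and at 750.2, 729, 743 and 709 CPM with TNFα. The vehicle groups overlapped, and the TNFα libraries of both genotypes lay above them without overlapping each other. Mmp2 rose with TNFα by 0.36 on the log2 scale (SE 0.040, adjusted p = 1.35e-07) in wild type cells and 0.61 (SE 0.057, adjusted p = 9.27e-10) in Notch2 mutant cells.

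Mmp14 (chromosome 14, 54668878 to 54682821) stood at 602, 610.4, 595 and 604 CPM in the wild type vehicle libraries and at 659.5, 692, 702 and 715 CPM in the wild type TNFα libraries. Mutant cells held it at 741, 643.5, 664 and 679 CPM with vehicle and at 839, 852, 831 and 764 CPM with TNFα. Every TNFα library lay above the vehicle libraries of its own genotype. Mmp14 rose by 0.21 on the log2 scale (SE 0.040, adjusted p = 0.000184) in wild type cells and 0.27 (SE 0.059, adjusted p = 0.000437) in Notch2 mutant cells, 1.15-fold and 1.21-fold differences.

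Mmp12 (chromosome 9, 7344381 to 7369499) stood at 2.54, 2.06, 2.51 and 3.93 CPM in the wild type vehicle libraries and at 4.49, 5.05, 5.54 and 4.55 CPM in the wild type TNFα libraries. For the mutant genotype it stood at 3.51, 6.47, 4.46 and 4.86 CPM with vehicle and at 6.55, 9.71, 8.95 and 6.35 CPM with TNFα. The treatments did not overlap in wild type cells and overlapped in the mutant cells, where vehicle replicate 2 was high. The rise of Mmp12 came to 0.82 on the log2 scale (SE 0.19, adjusted p = 0.00117) in wild type cells and 0.75 (SE 0.17, adjusted p = 0.000792) in Notch2 mutant cells. Without wild type replicate 4 the wild type value was 1.09 (adjusted p = 3.56e-05).

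Mmp19 (chromosome 10, 128626773 to 128636695) was the 1 gene of the 10 that fell with TNFα. It stood at 32.7, 32.5, 35.8 and 33.2 CPM in the wild type vehicle libraries and at 25.9, 24.9, 22.4 and 28.2 CPM in the wild type TNFα libraries. Mutant cells held it at 42.6, 39.9, 43.8 and 42.0 CPM with vehicle and at 34.6, 34.7, 36.7 and 35.3 CPM with TNFα. The treatments did not overlap in either genotype, and every wild type library but vehicle replicate 3 lay below every mutant library. Mmp19 changed by -0.40 on the log2 scale (SE 0.075, adjusted p = 0.000144) in wild type cells and -0.25 (SE 0.070, adjusted p = 0.00466) in Notch2 mutant cells. Of the stretches of 75 bases in Mmp19, 28.6% also lie in Gm47093 or Tmem198b on the other strand, and 20.7% of those in Mmp2 lie in Gm45472 on the other strand. The strand setting of the counting is not given in the sources used here, so fragments from these stretches may not be assigned to 1 gene.

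Mmp11 (chromosome 10, 75759055 to 75772330) stood at 35.98, 33.96, 37.5 and 30.7 CPM in the wild type vehicle libraries and at 35.5, 41.5, 38.6 and 37.7 CPM in the wild type TNFα libraries. In the Notch2 mutant libraries it stood at 42.7, 40.5, 40.7 and 42.0 CPM with vehicle and at 46.9, 45.9, 44.3 and 51.6 CPM with TNFα. The wild type groups overlapped and the mutant groups did not. Mmp11 had a log2 change of 0.16 (SE 0.070, adjusted p = 0.0673) in wild type cells, and it passed without vehicle replicate 3 (adjusted p = 0.0409) or without TNFα replicate 1 (adjusted p = 0.0434). In Notch2 mutant cells it was 0.17 (SE 0.069, adjusted p = 0.0484), just past the threshold. It missed the threshold without any 1 of vehicle replicates 2, 3 and 4 or TNFα replicates 1, 2 and 4, with adjusted p between 0.0761 and 0.125 and log2 fold changes of 0.14 to 0.18. With all libraries it also missed it under RLE scaling (adjusted p = 0.058), DESeq2 (adjusted p = 0.0666), no filter (adjusted p = 0.0826) and the replicate block (adjusted p = 0.0523).

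Mmp16 (chromosome 4, 17852844 to 18125390) stood at 26.4, 22.2, 23.2 and 24.9 CPM in the wild type vehicle libraries and at 22.5, 21.0, 20.9 and 21.7 CPM in the wild type TNFα libraries. For the mutant genotype it stood at 15.02, 18.8, 19.6 and 17.7 CPM with vehicle and at 15.6, 15.7, 18.5 and 11.9 CPM with TNFα. The treatments overlapped in both genotypes, and all mutant libraries lay below all wild type libraries. With TNFα, Mmp16 differed by -0.17 on the log2 scale (SE 0.077, adjusted p = 0.0875) in wild type cells and -0.15 (SE 0.11, adjusted p = 0.274) in Notch2 mutant cells.

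**Figure D2:**
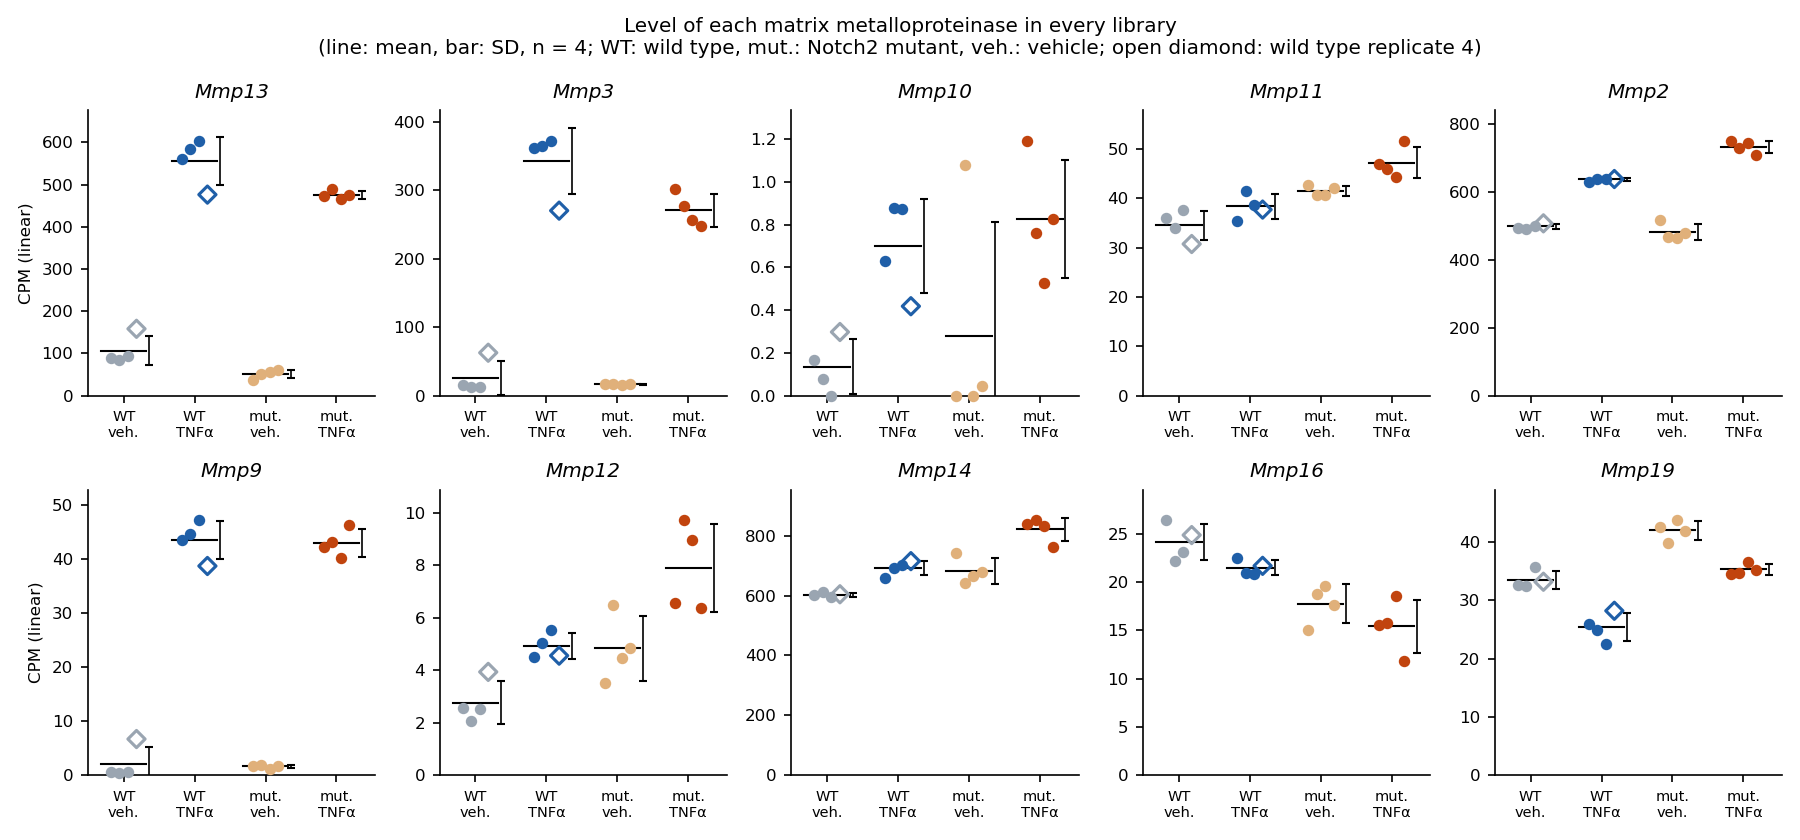
Each panel gives 1 gene, with its level in CPM on a linear axis from 0, a point for every library, a line for the group mean and a bar for the SD (n = 4). Wild type replicate 4 is drawn as an open diamond, which lies at 158 CPM for Mmp13, 62.7 CPM for Mmp3 and 6.67 CPM for Mmp9 with vehicle, above the other vehicle libraries.

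With vehicle, the Notch2 mutation was accompanied by more Mmp12, Mmp19, Mmp11 and Mmp14 and by less Mmp16. Of the 10 genes, 5 passed the test, 4 higher and 1 lower in Notch2 mutant cells, where 10.5% of 19432 genes passed, 6.19% higher and 4.35% lower. The groups did not overlap for 5 of the 10, against 16.2% of all genes. The median log2 fold change of the 10 genes was 0.072, and that of all genes was -0.0020. With all libraries, all of the 5 changes were smaller than 2-fold, a size that 1.26% of all genes passed. Without wild type vehicle replicate 4, Mmp12 and Mmp9 passed at more than 2-fold, as given below. Mmp19 was higher by 0.33 on the log2 scale (SE 0.064, adjusted p = 0.000834), and Mmp16 was lower at -0.44 (SE 0.087, adjusted p = 0.00123). Neither gene overlapped between the genotypes, and both stayed past the threshold with any 1 library left out. Mmp11 was higher by 0.27 (SE 0.068, adjusted p = 0.00933), and its lowest mutant library, at 40.5 CPM, lay above the highest wild type library, at 37.5 CPM.

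Mmp12 was higher in the mutant vehicle cells by 0.81 on the log2 scale (SE 0.21, adjusted p = 0.0122), with overlap only through wild type replicate 4. Without that library Mmp12 was higher by 1.025 (SE 0.20, adjusted p = 0.0011), a 2.035-fold difference. Mmp14 was higher by 0.18 (SE 0.050, adjusted p = 0.0181), with no overlap. Mmp12 missed the threshold without wild type vehicle replicate 1, 2 or 3 or mutant vehicle replicate 2, with adjusted p between 0.0512 and 0.0693. Mmp14 missed it without wild type vehicle replicate 1, 2 or 3 or mutant vehicle replicate 4, with adjusted p between 0.0508 and 0.068.

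The calls for Mmp3 and Mmp9 turned on wild type vehicle replicate 4, and that for Mmp13 on this library and on the fit. With all libraries, Mmp13 had a log2 change of -1.03 in the mutant cells (SE 0.26, adjusted p = 0.0609), Mmp3 of -0.62 (SE 0.61, adjusted p = 0.65) and Mmp9 of -0.38 (SE 0.97, adjusted p = 0.89). Without that library Mmp13 was lower in the mutant cells at -0.78 (SE 0.15, adjusted p = 0.02). Every mutant vehicle library of Mmp13, at 38.2 to 59.8 CPM, lay below every wild type one, at 84.2 to 158 CPM. Mmp3 was higher without that library at 0.31 (SE 0.093, adjusted p = 0.0321), with 16.3 to 17.4 CPM in the mutant cells and 12.7 to 14.9 CPM in wild type replicates 1 to 3. Mmp9 was higher without it at 1.64 (SE 0.34, adjusted p = 0.00165), with 1.14 to 1.85 CPM in the mutant cells and 0.304 to 0.608 CPM in wild type replicates 1 to 3. These wild type replicates held 4 to 11 counts of Mmp9, so the size is imprecise. In all, 8 of the 10 genes passed without wild type vehicle replicate 4, 6 higher and 2 lower, where 10.4% of all genes passed. With all libraries kept, Mmp13 also passed with DESeq2 (-1.04, adjusted p = 0.000801), with the filterByExpr filter (adjusted p = 0.0448), in the fit to all 16 libraries (adjusted p = 0.00345) and with the replicate block (adjusted p = 0.0259). Wild type vehicle replicate 4 lay 14% of the way from the vehicle mean to the TNFα mean of replicates 1 to 3 for Mmp3, 13.8% for Mmp9 and 14% for Mmp13. The 9 TNFα response genes lay at 11.1 to 17.8% of the way in the same library. Wild type TNFα replicate 4 lay at 72.8% of the way for Mmp3, 85.6% for Mmp9 and 78.4% for Mmp13, and at 79.5 to 89.2% for the 9 response genes.

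With TNFα, Mmp2, Mmp11, Mmp12, Mmp14 and Mmp19 were higher and Mmp3, Mmp13 and Mmp16 were lower in Notch2 mutant cells. These 8 of the 10 genes passed the test, where 9.94% of 19227 genes passed, 5.63% higher and 4.31% lower. The groups did not overlap for 6 of them, against 14.8% of all genes. The median log2 fold change of the 10 genes was 0.22, and that of all genes was -0.012. No change reached 2-fold, a size that 1.41% of all genes passed. Mmp12 had the largest, at 0.74 (SE 0.15, adjusted p = 0.00136), with 6.35 to 9.71 CPM in the mutant cells and 4.49 to 5.54 CPM in wild type cells. Mmp19 was higher at 0.49 (SE 0.081, adjusted p = 9.21e-05), Mmp11 at 0.29 (SE 0.073, adjusted p = 0.00853) and Mmp14 at 0.26 (SE 0.058, adjusted p = 0.00298). Mmp2 was higher at 0.22 (SE 0.057, adjusted p = 0.0112), and its adjusted p was 0.0526 without wild type TNFα replicate 2. Mmp16 was lower at -0.42 (SE 0.097, adjusted p = 0.00438).

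Mmp3 was lower in the mutant TNFα cells at -0.32 (SE 0.090, adjusted p = 0.0311), with 248 to 302 CPM against 270.3 to 372 CPM. Mmp13 was lower at -0.21 (SE 0.067, adjusted p = 0.0424), with 467 to 489 CPM against 476 to 604 CPM. Both overlapped through wild type TNFα replicate 4 alone, and without it 5 genes were again higher and 3 lower, where 11.0% of all genes passed, at -0.43 (adjusted p = 1.07e-05) for Mmp3 and -0.29 (adjusted p = 0.000483) for Mmp13. Mmp3 missed the threshold without wild type TNFα replicate 1, 2 or 3 or mutant TNFα replicate 2, 3 or 4, with adjusted p between 0.0675 and 0.18. Mmp13 missed it without any 1 of replicates 1, 2 and 3 of either genotype, with adjusted p between 0.0714 and 0.134. In the fit to all 16 libraries Mmp3 had an adjusted p of 0.698 and Mmp13 of 0.554, and Mmp13 also missed the threshold with filterByExpr (adjusted p = 0.0718) and the replicate block (adjusted p = 0.0792). Mmp9 was at -0.021 (SE 0.075, adjusted p = 0.912) and Mmp10 at 0.23 (SE 0.40, adjusted p = 0.806), and their groups overlapped.

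Markers of other cells moved with the genotype. Of 13 macrophage markers, 10 were higher in the mutant cells with vehicle and 12 with TNFα, and none was lower, where 6.19 and 5.63% of all genes were higher. Their summed level was 74.8 to 80.9 CPM in wild type vehicle, 89.2 to 104 CPM in wild type TNFα, 140.3 to 164 CPM in mutant vehicle and 187 to 212 CPM in mutant TNFα cells. None of the 13 was at 0 in every library of a group. Mmp12, the macrophage elastase, had group means of 2.76 ± 0.810 CPM in wild type vehicle, 4.91 ± 0.49 in wild type TNFα, 4.82 ± 1.23 in mutant vehicle and 7.89 ± 1.69 in mutant TNFα cells (SD, n = 4). The part of macrophages in its level was not tested. The 10 chondrocyte markers moved the other way, with 10 of 10 lower in the mutant cells under each treatment, where 4.35 and 4.31% of all genes were lower. Without wild type replicate 4, 9 were lower with vehicle and 10 with TNFα. The part of chondrocytes in the lower Mmp16 was not tested. The summed level of 5 endothelial markers was 6.52 to 8.75 CPM in wild type and 15.15 to 19.4 CPM in mutant vehicle cells, and 9.04 to 11.95 CPM and 17.2 to 22.2 CPM with TNFα. That of 7 markers of fibroblasts and perichondrium was 31530 to 34480 CPM in wild type and 36000 to 38680 CPM in mutant vehicle cells, and 30880 to 33900 CPM and 34560 to 42460 CPM with TNFα. Of the 5 endothelial markers, 3 were higher and 0 lower in the mutant cells with either treatment. Of the 7 fibroblast and perichondrium markers, 4 were higher and 1 lower with vehicle, and 5 and 1 with TNFα. Without wild type replicate 4, 2 endothelial and 4 fibroblast markers were higher with TNFα. Of all genes, 6.19% were higher and 4.35% lower with vehicle, and 5.63 and 4.31% with TNFα. Both sums were higher in the mutant cells, as were Mmp2, Mmp11, Mmp14 and Mmp19 with TNFα and the last 3 with vehicle. The part of these cells in those levels was not tested.

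**Figure D3:**
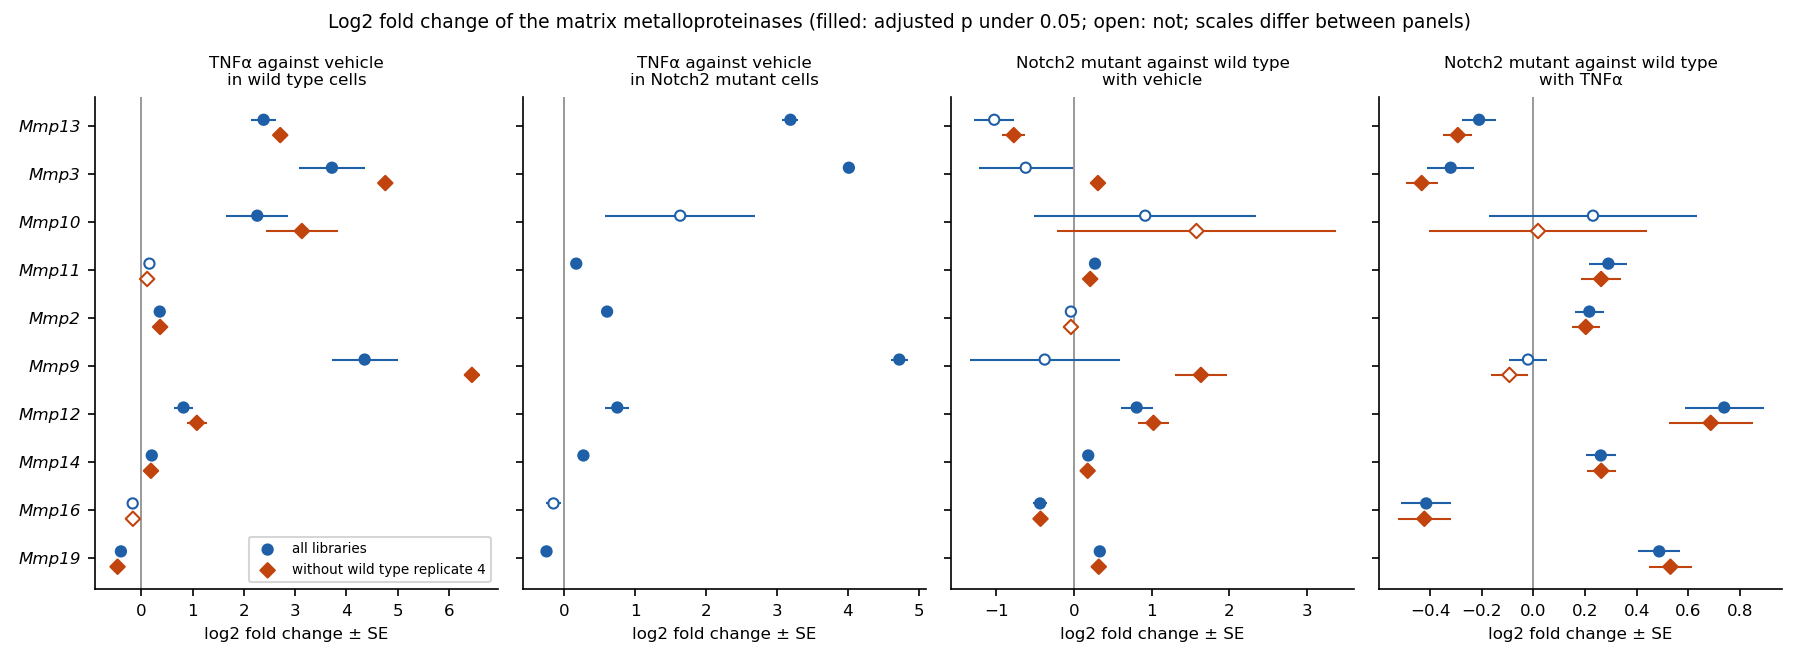
The 4 panels give the log2 fold change of each gene with its standard error for TNFα against vehicle in each genotype and for Notch2 mutant against wild type with each treatment, on horizontal axes that differ between panels. Filled symbols have an adjusted p under 0.05, and orange diamonds leave out wild type replicate 4, which moves Mmp9 from -0.38 to 1.64 and Mmp3 from -0.62 to 0.31 in the vehicle comparison of the genotypes.

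Whether TNFα acted differently in the 2 genotypes was tested with the interaction of genotype and treatment over all 16 libraries. None of the 10 genes passed with edgeR's quasi-likelihood test, where 0.474% of 21321 genes passed. At an unadjusted p under 0.05 there were 2, Mmp2 and Mmp13, beside 1856 of the 21321 genes. DESeq2 called 1, beside 206 of 11747 genes. Mmp2 had an interaction of 0.25 on the log2 scale (SE 0.072, unadjusted p = 0.00129, adjusted p = 0.131), that is a larger rise with TNFα in the mutant cells. DESeq2 gave 0.26 for Mmp2 (adjusted p = 0.00284), and without mutant vehicle replicate 1 the edgeR adjusted p was 0.0327. Mmp13 had an interaction of 0.81 (SE 0.27, unadjusted p = 0.00995, adjusted p = 0.32), and 0.48 without wild type replicate 4 (adjusted p = 0.262).

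For Mmp3 and Mmp9 the sign of the interaction turned with wild type replicate 4. With all libraries it was 0.30 for Mmp3 (SE 0.59, adjusted p = 0.935) and 0.37 for Mmp9 (SE 0.75, adjusted p = 0.938). Without both wild type replicate 4 libraries it was -0.74 for Mmp3 (SE 0.10, adjusted p = 1.38e-05) and -1.72 for Mmp9 (SE 0.28, adjusted p = 0.000323), where 0.63% of all genes passed. These 2 genes then had a smaller rise in the mutant cells, from vehicle levels that were higher than those of the wild type. The size for Mmp9 is imprecise, given its low vehicle counts. The interactions of the other 6 genes lay between -0.63 for Mmp10 and 0.15 for Mmp19, with SEs of 1.38 and 0.10, and none passed with or without these libraries.

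Of the genes that rose with TNFα in wild type cells, Mmp13, Mmp12, Mmp3 and Mmp10 lie in 1 cluster. On chromosome 9, between 7272514 and 7699587 of GRCm39, 10 MMP genes stand within 427.1 kb, and Mmp1b and Mmp1a stand between these 4. Mmp12 starts 71.9 kb, Mmp3 173 kb and Mmp10 229.8 kb after the start of Mmp13. With TNFα in wild type cells 5 of the 10 could be tested, and the 4 named passed, where 44.2% of all genes passed. Mmp10 reached the filter of 10 counts through its TNFα libraries, with 47 counts there and 9 with vehicle. Mmp27 had a log2 change of 1.31 (adjusted p = 0.0733), or 1.51 without wild type replicate 4 (adjusted p = 0.0423). In Notch2 mutant cells Mmp13, Mmp12 and Mmp3 passed, where 44.5% of all genes passed, and Mmp10 (adjusted p = 0.256) and Mmp27 (adjusted p = 0.595) did not. The other 5 had too few counts to test, with 8 counts of Mmp1b, 3 of Mmp1a and 11 of Mmp8 over all 16 libraries. Mmp20 and Mmp7 had no count in any library, although the Mmp7 and Mmp20 windows before the start also hold both the AP-1 and the TATA letters. The cluster thus held genes such as Mmp13, at 556 CPM on average in wild type TNFα cells, beside genes at or near 0 in the same cells. Outside it, Mmp9 on chromosome 2 was the 1 gene of the 10 that passed with a change of more than 2-fold.

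**Figure D4:**
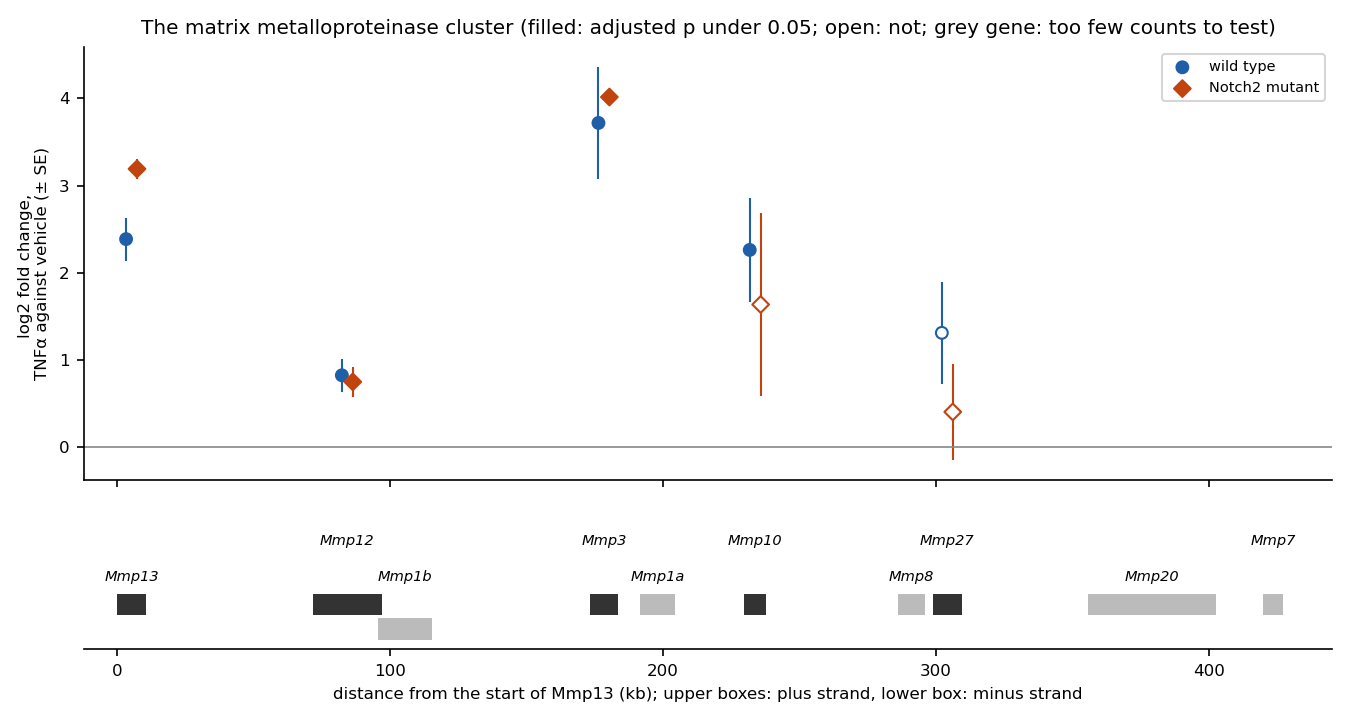
The lower track draws the 10 MMP genes of the cluster to scale by their distance in kb from the start of Mmp13, in grey where the counts were too few to test, and the upper panel gives the log2 fold change with TNFα and its standard error for each genotype. Mmp13 and Mmp3 have the highest filled points, at 2.39 and 3.72 in wild type cells and 3.19 and 4.01 in Notch2 mutant cells.

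Of 13 further MMP genes, 7 could be tested in the comparisons of pairs of groups. With TNFα, 2 were higher and 0 lower in wild type cells, where 44.2% of all genes passed. In Notch2 mutant cells 1 was higher and 1 lower with TNFα, where 44.5% passed. Between the genotypes 2 were higher and 0 lower in the mutant cells with either treatment, where 10.5 and 9.94% of all genes passed. Mmp15, a membrane-anchored MMP, rose with TNFα by 1.04 on the log2 scale in wild type cells (adjusted p = 9.09e-06) and by 0.66 in Notch2 mutant cells (adjusted p = 0.000147). Mmp23 was higher with TNFα in wild type cells at 0.18 (adjusted p = 0.02) but not without wild type replicate 4 (0.11, adjusted p = 0.15), and Mmp17, also membrane-anchored, was lower in mutant cells at -0.52 (adjusted p = 0.000173). Mmp17 differed most between the genotypes, at 4.37 to 6.70 CPM in wild type and 15.7 to 17.6 CPM in mutant vehicle cells. The log2 difference of Mmp17 was 1.68 with vehicle (adjusted p = 9.07e-10) and 1.03 with TNFα (adjusted p = 2.09e-06). Mmp23 was higher in the mutant cells at 0.53 with vehicle (adjusted p = 5.01e-06) and 0.51 with TNFα (adjusted p = 1.34e-06). Mmp8, the neutrophil collagenase, was at most 0.228 CPM in any library.

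Genes that restrain or activate the MMPs also changed with TNFα. Of 8 inhibitor genes, 3 were higher and 4 lower in wild type cells, and 3 were higher and 3 lower in Notch2 mutant cells. Of all genes, 23.3% were higher and 20.9% lower in wild type cells and 22.6% and 21.9% in mutant cells. Timp3, a tissue inhibitor bound to matrix, stood at 9327 ± 593 CPM (SD, n = 4) with vehicle and 2684 ± 679.9 CPM with TNFα in wild type cells, a log2 change of -1.79 (adjusted p = 0.000234). Without wild type replicate 4 this change was -2.03 (adjusted p = 3.89e-28). In Notch2 mutant cells Timp3 stood at 5901 to 6397 CPM with vehicle and 1476 to 1703 CPM with TNFα, at -1.96 (adjusted p = 2.02e-20). A2m, a protease inhibitor of plasma, rose by 1.21 (adjusted p = 5.53e-11) and 1.17 (adjusted p = 3.56e-11), and Tfpi2 rose by 1.98 (adjusted p = 0.000524) and 1.67 (adjusted p = 1.39e-07), in wild type and mutant cells. Without wild type replicate 4 the wild type value of Tfpi2 was 2.66, a 6.32-fold difference in place of 3.95-fold. Timp4 passed as lower in both genotypes, from 0.553 to 0.655 CPM in wild type vehicle and 0.895 to 1.75 CPM in mutant vehicle cells to at most 0.175 CPM with TNFα. It held at most 3 counts, the floor of detection, in a TNFα library and reached the filter through its vehicle libraries. The call of Timp4, 1 of the 4 and of the 3 lower inhibitors, therefore only describes these counts. Between the genotypes, 1 inhibitor was higher and 4 were lower in the mutant cells with vehicle, and 3 were lower with TNFα, where 6.19 and 4.35% of all genes were higher and lower with vehicle and 4.31% lower with TNFα. The 1 higher with vehicle was Timp4 at 1.00 (adjusted p = 0.0387), which missed the threshold without wild type replicate 4 (adjusted p = 0.0618), whereas Timp2 then passed as lower (adjusted p = 0.00719), so that 0 were higher and 5 lower. Timp3 was lower in the mutant cells at -0.57 with vehicle (adjusted p = 2.85e-08) and -0.73 with TNFα (adjusted p = 0.0329), and A2m at -0.72 (adjusted p = 7.12e-06) and -0.76 (adjusted p = 3.47e-08). Without wild type replicate 4 the Timp3 value with TNFα was -0.55 (adjusted p = 4.27e-08).

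Of 11 genes of the activating proteases and their regulators, 10 were tested, and 3 were higher and 4 lower with TNFα in wild type cells, 2 and 4 in mutant cells, beside 23.3 and 20.9% of all genes in wild type and 22.6 and 21.9% in mutant cells. Of the 3, Bsg (adjusted p = 0.0357) missed the threshold without wild type replicate 4 (adjusted p = 0.0536). Plat, the tissue plasminogen activator, rose by 0.92 in wild type cells (adjusted p = 2.24e-07) and by 1.53 in mutant cells (adjusted p = 5.32e-16). The interaction of Plat was 0.61 (SE 0.11, adjusted p = 0.00263), and its levels with TNFα were 42.0 to 54.8 CPM in wild type and 70.6 to 76.4 CPM in mutant cells. Plaur, the urokinase receptor, fell by 1.21 and 1.37 on the log2 scale in wild type and mutant cells (adjusted p = 7.94e-11 and 2.67e-13), and Plau, urokinase, fell by 0.50 and 0.90 (adjusted p = 4.57e-07 and 1.2e-11). The interaction of Plau was -0.40 (adjusted p = 0.0305), and it missed the threshold without both wild type replicate 4 libraries (adjusted p = 0.106). Between the genotypes 1 was higher and 1 lower in the mutant cells with either treatment, where 10.5 and 9.94% of all genes passed. Plau was higher in the mutant cells with vehicle by 0.34 (adjusted p = 0.000155), and Plat was higher with TNFα by 0.62 (adjusted p = 4.97e-07).

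**Figure D5:**
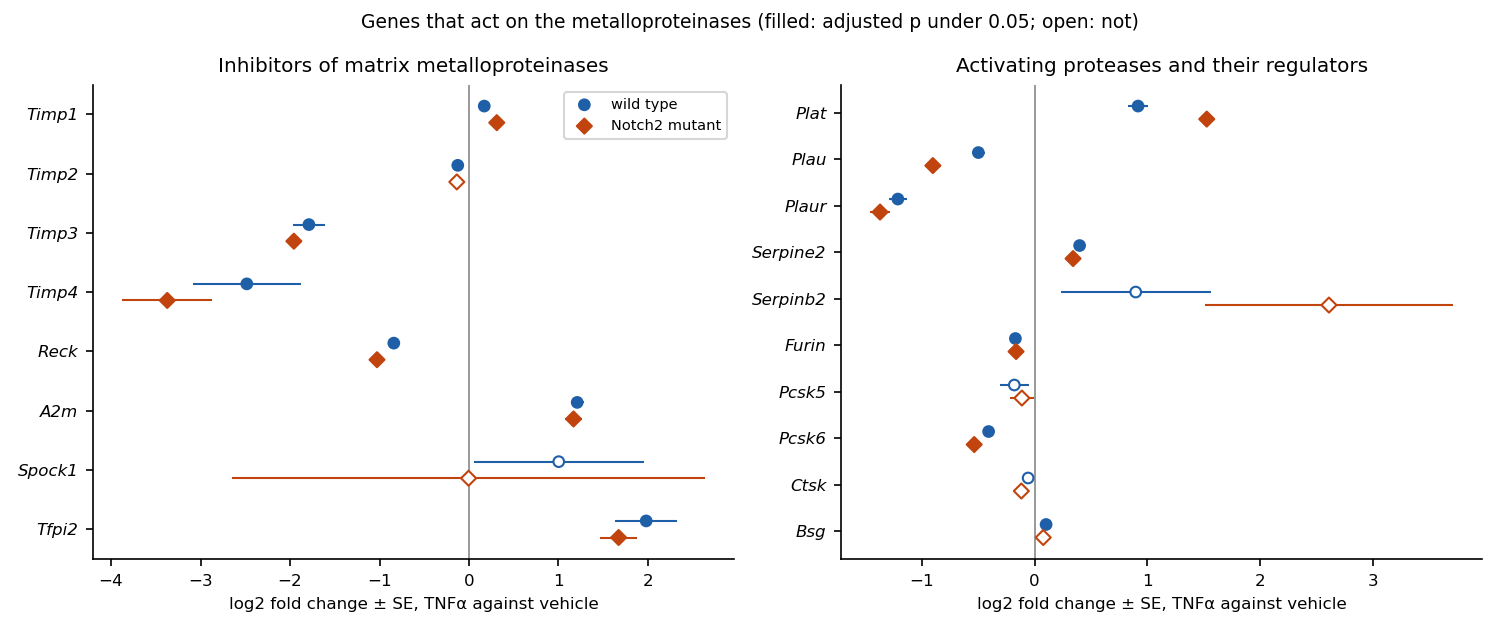
Points give the log2 fold change with TNFα and its standard error for inhibitors of MMPs (left) and for activating proteases and their regulators (right), in wild type cells (blue circles) and Notch2 mutant cells (orange diamonds), filled where the adjusted p is under 0.05. Timp3 lies at -1.79 and -1.96 and Plat at 0.92 and 1.53.

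Of 14 genes of cartilage matrix that MMPs can cleave, 8 were lower and 2 higher with TNFα in each genotype, where 20.9% of all genes were lower and 23.3% higher in wild type cells and 21.9 and 22.6% in mutant cells. Acan, the aggrecan core protein, fell by 1.33 in wild type cells (adjusted p = 0.000943) and by 1.49 in mutant cells (adjusted p = 7.57e-18) on the log2 scale, and Matn3 fell by 1.03 (adjusted p = 2.38e-06) and 1.60 (adjusted p = 6.4e-09). Between the genotypes, 12 of the 14 were lower and 1 higher in the mutant cells with either treatment, where 4.35 and 4.31% of all genes were lower. Col2a1, the type II collagen of cartilage, was lower at -0.65 with vehicle (adjusted p = 1.73e-08), and Matn1 was lower at -0.73 with vehicle (adjusted p = 1.1e-08) and -1.14 with TNFα (adjusted p = 1.64e-12).

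The genes whose pattern over the 16 libraries was most like that of a member were found among 13431 genes with a mean of at least 1 CPM, by Pearson's r of log2 levels. The points share the treatment, so these values describe the libraries and are given without a test. Tap2, Npr1 and Tmem132e were closest to Mmp3 (r = 0.998 for each), and C3 (r = 0.997), Cd83 and Slfn2 (r = 0.996 for both) to Mmp9. Mt2 (r = 0.995), Hbp1 and Ifit2 (r = 0.994 for both) were closest to Mmp13. For Mmp2 they were Pgd and Clec4e (r = 0.988 for both) and Nfkb1 (r = 0.985), and for Mmp14 Tagln2 (r = 0.977), Dennd2a (r = 0.971) and Tubb2b (r = 0.96). Mmp16 was closest to Atp6v1a (r = 0.955), Hs6st2 (r = 0.918) and Sox5 (r = 0.913), and Mmp19 to Enc1 (r = 0.968), Lpl (r = 0.965) and Aoc3 (r = 0.962).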

How the data were processed

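The authors deposited 1 table of raw counts per library, as fragments per Ensembl gene. Libraries were stranded, pooled and sequenced as read pairs of 75 bases. The study's methods give Trimmomatic 0.39, HISAT2 2.2.1 with GRCm39 and Ensembl 105, SAMtools 1.9 and htseq-count 0.11.0, whereas the submitters' processing notes list HISAT2 2.1.0 and GRCm38, and the strand setting is not given in the sources used here. Rows that name no gene, 8.81 to 12.1% of fragments, were left out.

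From the counts, genes with at least 10 counts over the libraries compared were tested with edgeR 4.0.16 (TMM scaling, robust quasi-likelihood test, Benjamini-Hochberg adjustment over all genes tested, call at an adjusted p under 0.05) in R 4.3.3 with limma 3.58.1. Each pair of groups was fitted alone and the interaction on all 16 libraries. The standard error is the log2 fold change over the root of F. The test was checked on simulated counts. Alternatives were other scaling, filters and thresholds, DESeq2 1.42.0, all 16 libraries in 1 fit, a replicate block and libraries left out. Tables and plots were made in Python 3.11.15 (matplotlib 3.10.9, numpy 2.4.6, pandas 2.3.3).

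The genes and lists were chosen with earlier results of these data known. All 10 genes are named in every comparison, and of each list at most the 4 called genes with the largest change. A gene of the list of activating proteases and their regulators is not reported here and was left out of its counts. Mean counts per group rest on 4 libraries, and low counts such as those of Mmp10 limit the precision.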

Additional observations from a re-analysis of the deposited data

Results flagged for a closer look

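In each group of 4 libraries the highest or lowest level was set against the others, and it was flagged where its gap to the nearest library, as a share of the range of the group, was above Dixon's critical value. Chance flags about 1 in 20 groups, and 6 of the 40 groups of the 10 genes were flagged. Wild type vehicle replicate 4 stood above the other libraries of its group for Mmp3 at 62.7 CPM, for Mmp9 at 6.67 CPM and for Mmp13 at 158 CPM. Wild type TNFα replicate 4 stood below its group for Mmp3 at 270.3 CPM. Mmp10 stood at 1.08 CPM in Notch2 mutant vehicle replicate 2, where the other 3 libraries held 0 to 2 counts. Mmp2 stood at 630.4 CPM in wild type TNFα replicate 1, below a group that otherwise spanned 638 to 639 CPM.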

How the results depend on the processing

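With all libraries, 4 of the 10 genes were called with TNFα in wild type cells at a change of at least 2-fold and 3 in Notch2 mutant cells. In either comparison of the genotypes 0 were called at this size. Mmp10, 1 of the 4, reached the filter of 10 counts through its TNFα libraries. Without wild type vehicle replicate 4, Mmp12 and Mmp9 passed at more than 2-fold between the genotypes with vehicle. Of all genes, 11.8 and 13.9% were called with TNFα at this size, and 1.26 and 1.41% between the genotypes with vehicle and TNFα. With 1 library left out, 8 to 9 of the 10 were called with TNFα in wild type cells, 7 to 8 in Notch2 mutant cells, 3 to 8 between the genotypes with vehicle, 5 to 8 with TNFα and 0 to 2 in the interaction. Of all genes, 7757 to 8549, 7915 to 9307, 1578 to 2666, 1458 to 2075 and 51 to 156 were called, in the same order. The genes tested were 18627 to 19561 for pairs of groups and 20935 to 21220 for the interaction. With vehicle, 3 of the 10 were called without wild type replicate 1, 2 or 3, beside 1623 to 1680 of all genes. Without wild type vehicle replicate 4 there were 8, beside 1980 of all genes. With TNFα, 5 were called without wild type replicate 2, beside 1592 of all genes. Without both wild type replicate 4 libraries 8 were called with vehicle, where 10.4% of all genes passed, and 2 in the interaction, where 0.63% passed. With all libraries DESeq2 called 1 in the interaction, beside 206 of 11747 genes.

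The sign turned for the following values. Between the genotypes with vehicle, Mmp3 was at 0.31 and Mmp9 at 1.64 without the wild type replicate 4 libraries, and the interactions were then -0.74 and -1.72. With 1 library left out, the vehicle values ranged from -0.85 to 0.31 for Mmp3, -0.71 to 1.64 for Mmp9 and -2.25 to 1.58 for Mmp10. With TNFα they ranged from -0.093 to 0.0055 for Mmp9 and -0.058 to 0.43 for Mmp10. The interactions ranged from -0.66 to 0.52 for Mmp3, -1.68 to 0.71 for Mmp9, -1.32 to 2.41 for Mmp10, -0.025 to 0.058 for Mmp11, -0.31 to 0.065 for Mmp12 and -0.077 to 0.073 for Mmp16. The cause was not tested.

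Same-numbered libraries had correlations of -0.19 to 0.142 in their deviations from the group means, and different-numbered ones had -0.174 to 0.152. Whether libraries of the same number came from the same animals was not tested. With the replicate block 8 and 8 genes were called with TNFα in wild type and mutant cells, 6 and 7 between the genotypes with vehicle and TNFα, and 0 in the interaction. Of all genes, 8209 of 19338, 8772 of 19633, 2072 of 19432, 1741 of 19227 and 74 of 21321 were called, in the same order. Under the block Mmp9 was at 0.17 and Mmp10 at -0.0095 between the genotypes with vehicle.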
